A study of Mus musculus with 2 samples.

Results

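Arginine uptake and metabolism was followed here through 6 genes, Arg1, Arg2, Nos2, Slc7a2, Ass1 and Odc1, out of the 32285 genes counted in each cell. The genes were picked by symbol, with earlier results of these data in view, and all 6 had UMIs in both libraries. UMIs are molecules counted once each through a unique molecular identifier. Male C57BL/6 mice aged 6 to 8 weeks carried MC38 colon cancer tumors in both flanks, and microwave ablation (MWA) was applied to the right tumor at about 300 mm3. The MWA group had the ablation with an isotype control antibody. The MWA plus TIGIT group had the ablation with an anti-TIGIT antibody, given 3 times at intervals of 3 days from day 1 after MWA. CD45+ immune cells were sorted on day 8 from the left tumor, which was not ablated, and the number of mice behind each library was not given in the sources used here. Neither an untreated library nor a library of anti-TIGIT alone was analysed here.

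Arginine enters macrophages through cationic amino acid transporters, of which SLC7A2 is the inducible one. Arginase 1 in the cytosol (Arg1) and arginase 2 in mitochondria (Arg2) split arginine into urea and ornithine, and ornithine decarboxylase (Odc1) turns ornithine into putrescine, the start of the polyamines. Inducible nitric oxide synthase (Nos2) uses the same arginine to make nitric oxide and citrulline, and argininosuccinate synthase (Ass1) starts the rebuilding of arginine from citrulline. Arginase of myeloid cells in tumors is known for drawing on the arginine that T cells need.

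Each group is a single library, so the groups could not be tested against each other. Every interval below is an exact 95% interval that covers counting error only, and UMIs of cells are not independent samples of a condition. After filtering, 9231 cells of the MWA library with 56839220 UMIs and 9127 cells of the MWA plus TIGIT library with 68000780 UMIs remained. The median was 5343 and 6391 UMIs per cell. The libraries shared 37 barcodes, of which 29 were kept. Levels are the UMIs of a gene scaled to the total UMIs of the cell group (CPM, or UMIs per 1000000 UMIs), and log2 ratios are MWA plus TIGIT over MWA.

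Myeloid cells were clustered without the 6 genes and without the genes of the pathway lists below, and were named from markers. The 6 genes took no part in the naming, but some list genes, such as Bnip3, Ndrg1, Cxcl10 and Chil3, were among the markers. Of the tumor-associated macrophage (TAM)-like cells, 3652 were in the MWA library and 3767 in the MWA plus TIGIT library. They held the complement gene C1qa at 5220 and 5857 CPM, while the T cell gene Cd3e was at 3.28 and 1.92 CPM. The Selenop Ccl8 TAM-like cluster had 1190 and 1165 cells. The Folr2 Cbr2 TAM-like cluster, led by Ltc4s, Folr2, Cbr2 and Lyz1, had 821 and 913 cells. The hypoxic TAM-like cluster had 688 and 742 cells, and heat shock genes such as Hspb1 and Hspa1b led it beside the hypoxia genes Ndrg1 and Hilpda. Interferon TAM-like cells numbered 183 and 196, and cycling TAM-like cells 770 and 751. A Chil3 Ly6c2 monocyte-like cluster of 625 and 764 cells also held C1qa, at 1731 and 1788 CPM. Neutrophil-like cells numbered 96 and 89, mature dendritic cell (DC)-like cells 63 and 77, and type 1 conventional DC (cDC1)-like cells 56 and 29.

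Arg1 lies on the minus strand at chr10:24915221-24927484 of the mouse build GRCm38, under the identifier ENSMUSG00000019987. It had 39312 UMIs in the TAM-like cells of the MWA library and 82961 in those of the MWA plus TIGIT library. Its level was 1181 CPM (1170 to 1193) and 1967 CPM (1953 to 1980), a log2 ratio of 0.74 (0.72 to 0.75). A gene was counted as past the threshold when its CPM differed at least 1.5-fold between the libraries, among the 12778 genes with at least 20 UMIs. Of these, 5.65% were past it, with 2.64% higher and 3.01% lower in the MWA plus TIGIT library. Of the 6 arginine genes, Arg1, Slc7a2 and Nos2 were past it, all higher. Since the genes were picked with this comparison known, their count is a description.

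Arg1 was highest in the Folr2 Cbr2 TAM-like cluster in both libraries, at 2164 CPM (2131 to 2198) in the MWA library and 3693 CPM (3656 to 3730) in the MWA plus TIGIT library. The hypoxic TAM-like cluster followed at 1872 and 2549 CPM. The interferon TAM-like, cycling TAM-like and Selenop Ccl8 TAM-like clusters lay lower, at 893, 753 and 603 CPM in the MWA library and 1351, 1183 and 1056 CPM in the MWA plus TIGIT library. The 5 TAM-like clusters stood in this order in both libraries. The Chil3 Ly6c2 monocyte-like cells, at 982 and 1166 CPM, came after the hypoxic cluster in the MWA library but after the cycling cells in the MWA plus TIGIT library. In the MWA plus TIGIT library, their interval of 1139 to 1193 CPM contained the level of the cycling TAM-like cells. The Folr2 Cbr2 cluster exceeded the Selenop Ccl8 cluster 3.59-fold in the MWA library and 3.50-fold in the MWA plus TIGIT library.

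**Figure D1:**
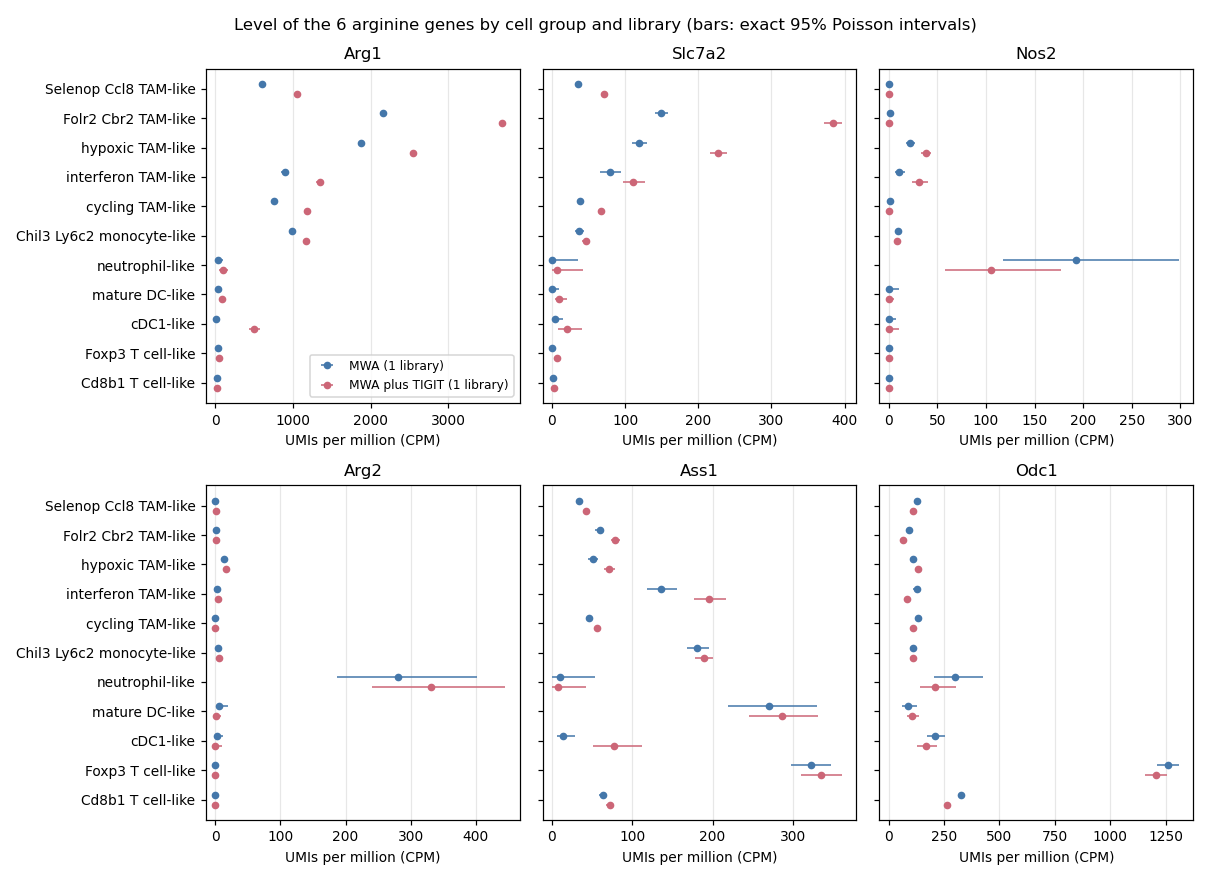
The level of each of the 6 genes in CPM (horizontal axes) is shown for 11 cell groups (rows), in the MWA library (blue) and the MWA plus TIGIT library (red), with exact 95% Poisson intervals as bars. Arg1 and Slc7a2 are highest in the Folr2 Cbr2 TAM-like cluster, Nos2 and Arg2 in neutrophil-like cells, and Ass1 and Odc1 in Foxp3 T cell-like cells.

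Arg1 was higher in the MWA plus TIGIT library in each of the 5 TAM-like groups. The log2 ratio was 0.81 (0.77 to 0.85) in the Selenop Ccl8 cluster, 0.77 (0.74 to 0.80) in the Folr2 Cbr2 cluster, 0.65 (0.61 to 0.70) in cycling cells, 0.60 (0.50 to 0.69) in interferon cells and 0.45 (0.41 to 0.48) in the hypoxic cluster. In the Chil3 Ly6c2 monocyte-like cells it was 0.25 (0.19 to 0.30). The intervals of the Selenop Ccl8 and Folr2 Cbr2 clusters overlapped each other and lay above that of the hypoxic cluster, which in turn lay above that of the monocyte-like cells.

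The higher level was spread over the cells. The median TAM-like cell had 606 CPM of Arg1 in the MWA library and 1082 CPM in the MWA plus TIGIT library, and the cell at the 90th percentile had 3207 and 5182 CPM. The 10% of cells with the most Arg1 UMIs held 43.7% and 41.5% of them. In the Folr2 Cbr2 cluster, the median cell had 1576 and 3028 CPM, and 3.17% and 0.438% of cells had no Arg1 UMI. In the Chil3 Ly6c2 monocyte-like cluster, by contrast, 47.8% and 40.1% of cells had none, and the 10% of cells with the most held 63.7% and 59.6% of the Arg1 UMIs. The TAM-like cells were also read more deeply in the MWA plus TIGIT library, with a median of 10694 against 8726 UMIs. When each cell was thinned to 1000 UMIs, Arg1 was seen in 48.8% (47.2 to 50.5) of TAM-like cells in the MWA library and 60.2% (58.6 to 61.8) in the MWA plus TIGIT library. In the Folr2 Cbr2 cluster these shares were 70.6% and 85.7%, and in the Selenop Ccl8 cluster 32.0% and 47.4%.

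**Figure D2:**
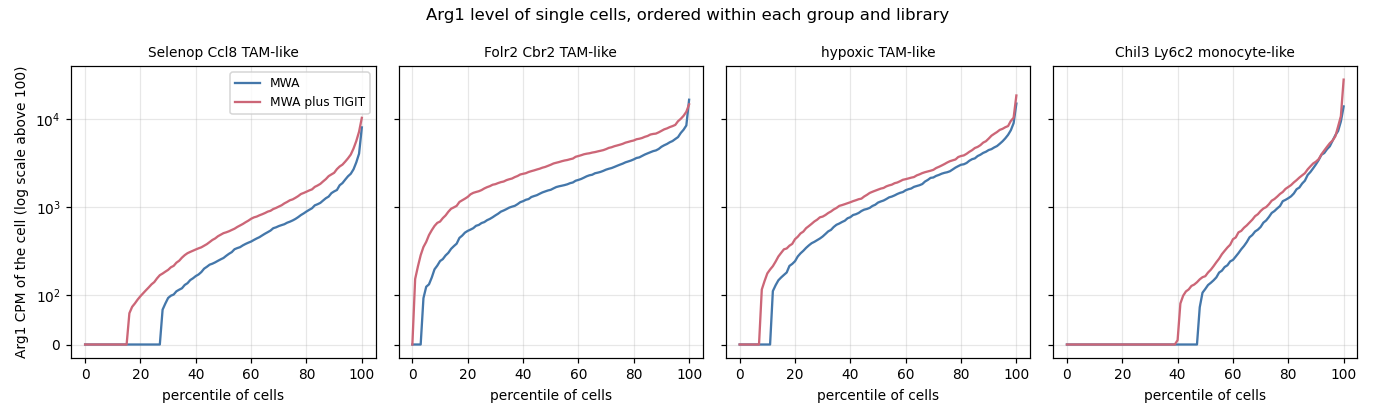
Cells are ordered by their Arg1 level (vertical axis, CPM, logarithmic above 100) within 4 cell groups, in the MWA library (blue) and the MWA plus TIGIT library (red). The MWA plus TIGIT curve lies above the MWA curve along most of each TAM-like panel, with medians of 3028 and 1576 CPM in the Folr2 Cbr2 TAM-like cluster, and the curves lie closer in the monocyte-like panel.

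Cells that should lack Arg1 gave the background, to which free RNA and doublets that were not removed can both add. Arg1 was at 23.0 and 28.0 CPM in Cd8b1 T cell-like cells, the largest T cell cluster. At 1000 UMIs per cell it was seen in 2.84% and 2.99% of them, whose median depth before thinning was 3443 and 3553 UMIs. These cells held 19.5 and 24.5 Arg1 UMIs per 100 UMIs of C1qa, against 22.6 and 33.6 in the TAM-like cells. The TAM-like level exceeded the T cell level 51.3-fold and 70.3-fold. Arg1 in neutrophil-like cells was at 38.6 and 97.9 CPM, from only 4 and 13 UMIs. Over the clusters of T, NK and B cells it was at 14.8 to 47.2 CPM, where the lowest and highest were B cell-like cells with 1 and 7 UMIs. In mature DC-like cells it was at 30.6 and 86.2 CPM, and at 11.3 and 16.9 CPM without the cell with the most Arg1 UMIs in each library, which held 7 of 11 and 43 of 53 UMIs. In cDC1-like cells it was at 10.2 and 499 CPM, but 137 of the 175 UMIs in the MWA plus TIGIT library were in 1 of 29 cells, and the level was 115 CPM without that cell and 23.1 CPM without the next, which held 31.

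Slc7a2, the arginine transporter gene, lies on the plus strand at chr8:40862396-40922308 (ENSMUSG00000031596). It had 2507 UMIs in TAM-like cells of the MWA library and 7241 in those of the MWA plus TIGIT library. Its level was 75.3 CPM (72.4 to 78.3) and 172 CPM (168 to 176), a log2 ratio of 1.19 (1.12 to 1.25). Of the 2470 genes with at least 50 CPM in these cells, 0.486% were past the 1.5-fold threshold, with 0.283% higher and 0.202% lower. Slc7a2 had the highest ratio of the 2470, and Arg1 had the third highest. Over the 12778 genes of any level, where low genes vary more, Slc7a2 ranked 46 and Arg1 188.

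**Figure D3:**
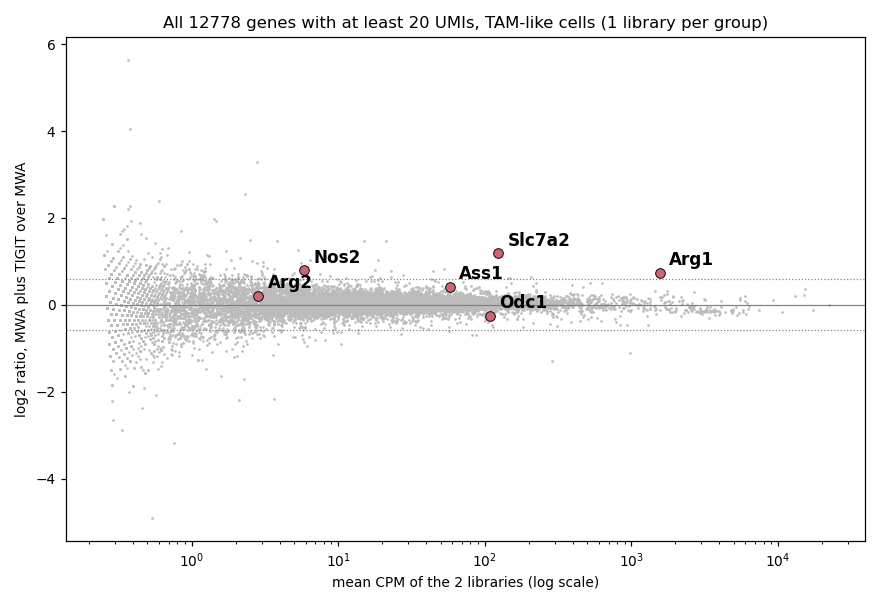
Each grey point is a gene of the TAM-like cells, placed by its mean CPM over the 2 libraries (horizontal axis, logarithmic) and its log2 ratio of MWA plus TIGIT over MWA (vertical axis), with the 6 arginine genes in red and dotted lines at a ratio of 1.5. Slc7a2 at 1.19 and Arg1 at 0.74 stand above the band of genes of like level, while Arg2, Ass1 and Odc1 lie between the dotted lines.

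Slc7a2 was distributed over the clusters like Arg1. It was at 149 and 384 CPM in the Folr2 Cbr2 cluster, 119 and 227 CPM in the hypoxic cluster, 79.4 and 111 CPM in interferon cells, 38.3 and 67.3 CPM in cycling cells and 35.9 and 71.4 CPM in the Selenop Ccl8 cluster. The Folr2 Cbr2 cluster exceeded the Selenop Ccl8 cluster 4.15-fold (3.69 to 4.68) in the MWA library and 5.38-fold (5.01 to 5.79) in the MWA plus TIGIT library. The log2 ratio between the libraries was 1.36 (1.27 to 1.46) in the Folr2 Cbr2 cluster and 0.99 (0.82 to 1.17) in the Selenop Ccl8 cluster, and these intervals did not overlap. It was 0.93 in the hypoxic cluster, 0.81 in cycling cells and 0.49 (0.16 to 0.82) in interferon cells. The Chil3 Ly6c2 monocyte-like cells, which held Arg1 above the level of cycling TAM-like cells in the MWA library and near it in the MWA plus TIGIT library, had 37.6 and 46.1 CPM of Slc7a2. In Cd8b1 T cell-like cells Slc7a2 was at 1.54 and 3.35 CPM.

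Arg1 and Slc7a2 also met in the same cells. At 1000 UMIs per cell, a Slc7a2 UMI was seen in 9.33% (8.01 to 10.8) of TAM-like cells with an Arg1 UMI in the MWA library, against 3.97% (3.13 to 4.96) of those without. In the MWA plus TIGIT library the shares were 17.7% (16.2 to 19.3) and 4.74% (3.72 to 5.94). The contrast was also present inside some single clusters. In the hypoxic cluster of the MWA plus TIGIT library the shares were 18.4% (15.2 to 22.1) and 8.33% (5.09 to 12.7), and in the Selenop Ccl8 cluster 8.33% and 2.28%, again with intervals that did not overlap. In the MWA library the intervals overlapped in the Folr2 Cbr2 cluster, with 12.9% (10.3 to 15.9) and 7.88%, and likewise in the hypoxic, cycling and interferon cells, and those of interferon cells overlapped in the MWA plus TIGIT library too. At 2000 UMIs per cell, the intervals no longer overlapped in the Folr2 Cbr2 and cycling cells of the MWA library, with 21.0% and 8.0% in the Folr2 Cbr2 cluster, nor in the interferon cells of the MWA plus TIGIT library.

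**Figure D4:**
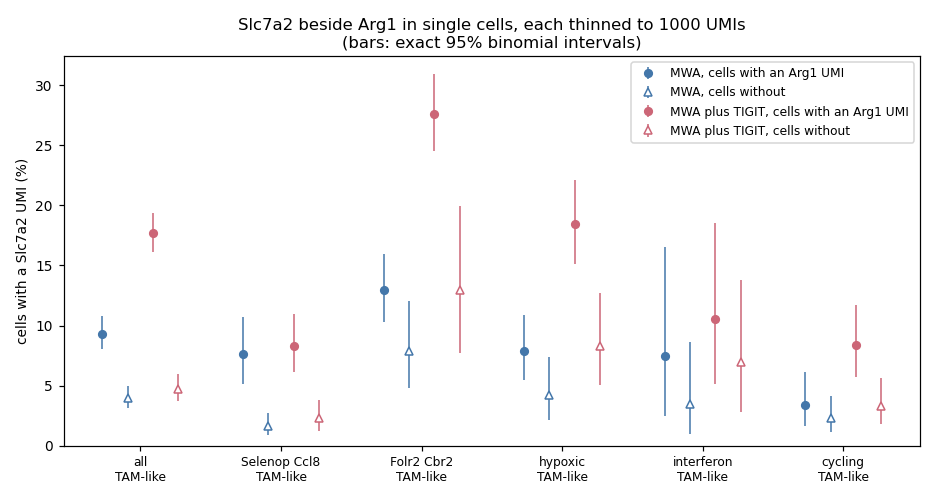
The percentage of cells with a Slc7a2 UMI (vertical axis) is shown for cells with (filled circles) and without (open triangles) an Arg1 UMI, in all TAM-like cells and 5 TAM-like groups, after thinning to 1000 UMIs, with exact 95% binomial intervals. In all TAM-like cells of the MWA plus TIGIT library (red) the shares are 17.7% and 4.74%, and in those of the MWA library (blue) 9.33% and 3.97%.

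Over 20 points, 10 myeloid groups in each of the 2 libraries, of which 1 monocyte-like group is not described here, the genes whose log2(CPM + 10) was most like that of Arg1 were Myo1e, St6galnac4, Slc7a2, Slc37a2 and Arhgap10. Their Pearson r lay between 0.92 and 0.95, out of 4577 genes compared. Conversely, Arg1 was the gene most like Slc7a2, with r = 0.94, followed by Rhoc and Serpinb6a. Both came from a comparison of points that share libraries, depth and free RNA, and are a description.

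Several other measures differed between the libraries beside Arg1 and Slc7a2, and their part in the difference was not tested. Folr2 was at 117 and 179 CPM in TAM-like cells, and the Folr2 Cbr2 cluster made up 8.89% and 10.0% of all cells. The heat shock gene Hspa1a was at 169 and 184 CPM in TAM-like cells, and at 710 and 1056 CPM in the hypoxic cluster, but it was lower in the MWA plus TIGIT library in the other 4 TAM-like groups, with 89.1 and 44.0 CPM in the Folr2 Cbr2 cluster and 68.7 and 28.1 CPM in the Selenop Ccl8 cluster. The early response genes Fos and Egr1 were lower, with 2098 and 1858 CPM for Fos and 341 and 281 CPM for Egr1. The median share of mitochondrial UMIs was 0.904% and 0.966%.

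Nos2, at chr11:78920787-78960254 on the plus strand (ENSMUSG00000020826), was a gene of few cells. It had 143 UMIs in 69 of 3652 TAM-like cells of the MWA library and 315 UMIs in 146 of 3767 of the MWA plus TIGIT library, or 4.30 CPM (3.62 to 5.06) and 7.47 CPM (6.67 to 8.34). The log2 ratio was 0.80 (0.51 to 1.09). Of these UMIs, 104 and 234 were in the hypoxic cluster, where Nos2 was at 22.1 CPM (18.1 to 26.8) and 38.3 CPM (33.6 to 43.6). Interferon cells followed with 16 and 64 UMIs, at 10.6 and 31.7 CPM, and a log2 ratio of 1.58 (0.77 to 2.47). In the Selenop Ccl8 cluster Nos2 was at 0.284 and 0.538 CPM, and in the Folr2 Cbr2 cluster, where Arg1 was highest, it had 11 and 9 UMIs.

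Cells of the hypoxic cluster with a Nos2 UMI also held Arg1. In that cluster, the 49 cells of the MWA library with a Nos2 UMI held Arg1 at 3291 CPM, against 1743 CPM in the 639 cells without. In the MWA plus TIGIT library, the 106 cells with a Nos2 UMI held 3431 CPM, against 2387 CPM in the other 636. The cells with a Nos2 UMI were also deeper, with medians of 7820 against 6580 UMIs and 8986 against 8112 UMIs. Slc7a2 was likewise higher in the cells with Nos2, at 211 against 111 CPM and 322 against 210 CPM. So was Ass1, at 96.6 against 46.6 CPM and 101 against 65.9 CPM. In interferon cells of the MWA library the order was the other way for Arg1, at 566 CPM in the 9 cells with a Nos2 UMI and 905 CPM in the other 174. The same held for Slc7a2, at 35.4 and 81.1 CPM, though the 9 cells held very few Slc7a2 UMIs. In interferon cells of the MWA plus TIGIT library, Arg1 was at 1545 CPM in the 26 cells with a Nos2 UMI and 1322 CPM in the other 170. Slc7a2 was at 229 CPM in those 26 cells and 93.5 CPM in the others. Across the 20 points, r between Arg1 and Nos2 was -0.06, while Spearman's rho, which uses ranks, was 0.34. The genes most like Nos2 were Il1rn, which encodes the interleukin-1 receptor antagonist, Grina and Ero1l.

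The highest level of Nos2 was in neutrophil-like cells, at 193 CPM (118 to 298) and 105 CPM (57.7 to 177), from only 20 and 14 UMIs. These cells had a median of 921 and 1160 UMIs. The intervals overlapped, and the log2 ratio of -0.87 (-1.97 to 0.19) stood among 27.9% of 1430 genes past the threshold in these few cells.

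Arg2 lies at chr12:79130777-79156301 on the plus strand (ENSMUSG00000021125), and overlaps Vti1b and Gm48780 on the opposite strand, which are counted as genes of their own. Its level was highest in neutrophil-like cells, although TAM-like cells, which are far more numerous, held more of its UMIs. Neutrophil-like cells had 29 and 44 Arg2 UMIs, at 280 CPM (187 to 402) and 332 CPM (241 to 445). Of 96 neutrophil-like cells in the MWA library, 21 had Arg2 alone, 10 had Nos2 alone and 0 had both. Of 89 in the MWA plus TIGIT library, 30 had Arg2 alone, 6 had Nos2 alone and 3 had both. These counts were taken without thinning in cells with medians of 921 and 1160 UMIs. They cannot tell whether Arg2 and Nos2 were in separate cells. The hypoxic cluster was the TAM-like group with the highest Arg2, at 13.8 and 16.5 CPM, which neutrophil-like cells exceeded 20.2-fold in the MWA library. In all TAM-like cells Arg2 had 88 and 129 UMIs, and its log2 ratio of 0.21 (-0.19 to 0.62) was not told apart from 0 at this depth. Across the 20 points, r between Nos2 and Arg2 was 0.89, which the neutrophil-like points share in, while Spearman's rho was 0.64.

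Ass1 lies at chr2:31470207-31520672 on the plus strand (ENSMUSG00000076441), and Odc1 at chr12:17544794-17551505 on the plus strand (ENSMUSG00000011179). Promoter sequences from RefSeq (GRCm38.p6) matched 2 of the 6 genes, namely these. They are shown because Ass1 and Odc1 were both highest in Foxp3 T cell-like cells among the named clusters, but went in opposite directions between the libraries in TAM-like cells. The 250 bases before each start site in RefSeq, which lies downstream of the GENCODE gene start above so that the windows include bases of the GENCODE genes, are given 5′ to 3′ on the plus strand, at chr2:31470020-31470269 for Ass1 and chr12:17544623-17544872 for Odc1. Capitals mark matches, read on either strand, to CACGTG, a form of the E-box, and to the GC box, spelled GGGCGG. Other forms of the E-box were neither marked nor counted.
Ass1: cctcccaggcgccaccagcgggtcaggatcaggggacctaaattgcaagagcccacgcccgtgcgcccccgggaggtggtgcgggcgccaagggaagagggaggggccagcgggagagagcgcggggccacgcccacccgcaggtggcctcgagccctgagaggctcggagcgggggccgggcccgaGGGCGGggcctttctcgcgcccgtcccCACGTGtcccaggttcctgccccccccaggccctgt
Odc1: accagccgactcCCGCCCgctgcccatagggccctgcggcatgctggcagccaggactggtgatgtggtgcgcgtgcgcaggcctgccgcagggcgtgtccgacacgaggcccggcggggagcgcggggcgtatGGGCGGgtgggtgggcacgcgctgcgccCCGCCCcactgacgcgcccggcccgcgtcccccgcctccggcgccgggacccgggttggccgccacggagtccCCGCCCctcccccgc
The Ass1 window held 1 match to CACGTG and 1 to the GC box, and the Odc1 window 0 and 4. Of 32851 such windows, 6.02% held CACGTG and 32.7% the GC box. The TATA box, spelled TATAAA and held by 12.4% of windows, was in neither. GC content was 75.6% and 80.0%.

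Ass1 stood apart from Arg1 in where it was found. Among TAM-like clusters it was highest in interferon cells, at 136 and 196 CPM, with 34.0 and 42.4 CPM in the Selenop Ccl8 cluster and 59.5 and 78.7 CPM in the Folr2 Cbr2 cluster. The Chil3 Ly6c2 monocyte-like cells held 181 CPM (168 to 195) and 189 CPM (179 to 200), and exceeded the Selenop Ccl8 cluster 5.33-fold and 4.47-fold. Mature DC-like cells held 270 and 286 CPM. Foxp3 T cell-like cells, a cluster led by genes of regulatory T cells, held 322 and 335 CPM, 5.03-fold and 4.63-fold the level of Cd8b1 T cell-like cells. In TAM-like cells, Ass1 had 1664 and 2802 UMIs, with intervals of 47.6 to 52.5 CPM and 64.0 to 68.9 CPM. The log2 ratio of 0.41 (0.32 to 0.50) stayed below the 1.5-fold threshold, though Ass1 ranked 18 of the 2470 genes with at least 50 CPM. The ratio was above 0 in each of the 5 TAM-like groups, from 0.29 to 0.52, and was 0.06 (-0.07 to 0.20) in the Chil3 Ly6c2 monocyte-like cells.

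Odc1 had the lowest ratio of the 6 genes. It had 3946 and 4211 UMIs in TAM-like cells, or 119 CPM (115 to 122) and 99.8 CPM (96.8 to 103), a log2 ratio of -0.25 (-0.31 to -0.19), and ranked 2406 of the 2470 genes. The direction was not shared by all TAM-like clusters. The log2 ratio was -0.65 (-0.97 to -0.35) in interferon cells, where it was past the threshold, though in only 5 of 9 alternatives (down to -0.40), and -0.55 (-0.71 to -0.40) in the Folr2 Cbr2 cluster, where Arg1 was highest. It was -0.23 in the Selenop Ccl8 cluster and -0.27 in cycling cells. In the hypoxic cluster Odc1 was higher in the MWA plus TIGIT library, at 131 CPM (122 to 141) against 109 CPM, a log2 ratio of 0.27 (0.10 to 0.43), which was 0.01 when myeloid cells were clustered at a resolution of 1.0. Foxp3 T cell-like cells held Odc1 at 1261 and 1206 CPM, 10.6-fold and 12.1-fold the level of TAM-like cells, and Cd8b1 T cell-like cells at 328 and 262 CPM.

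**Figure D5:**
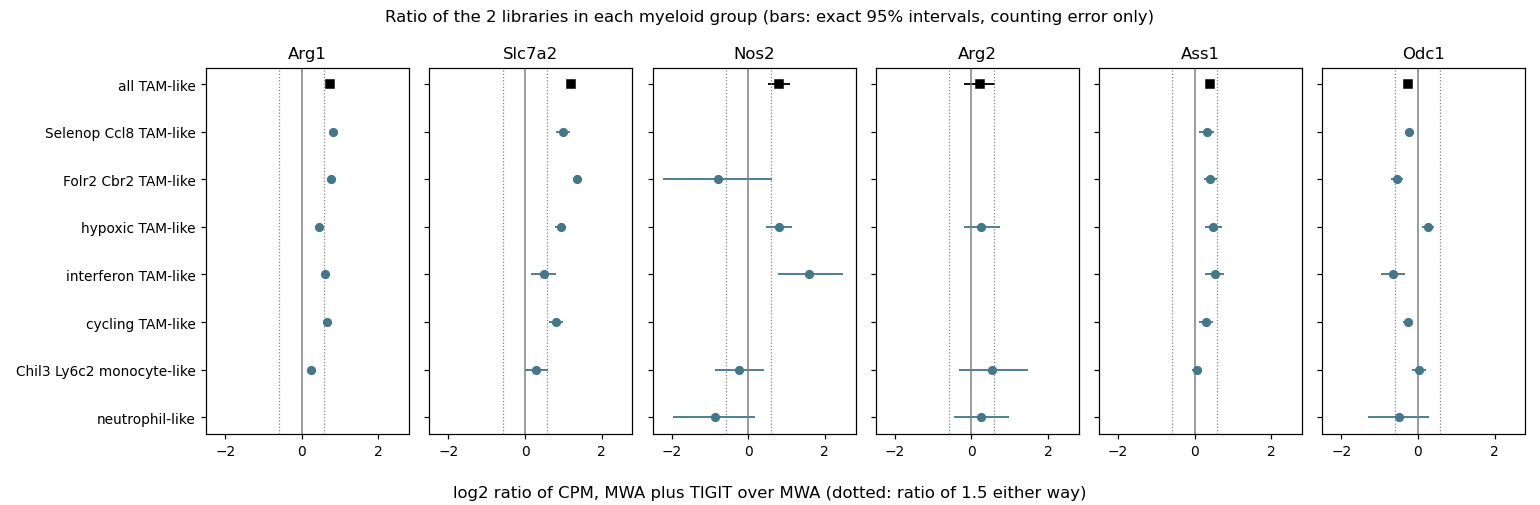
The log2 ratio of CPM, MWA plus TIGIT over MWA (horizontal axes), is shown for each of the 6 genes in all TAM-like cells (black squares) and in the TAM-like, Chil3 Ly6c2 monocyte-like and neutrophil-like groups with at least 20 UMIs (circles), with exact 95% intervals for counting error and dotted lines at a ratio of 1.5. Arg1 and Slc7a2 lie to the right of 0 in every TAM-like group, while Odc1 lies to the left of 0 except in the hypoxic cluster at 0.27 and the Chil3 Ly6c2 monocyte-like cells at 0.02.

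By cluster, the numbers of the 6 genes past the threshold stood against different backgrounds. In the Folr2 Cbr2 cluster Arg1 and Slc7a2 were higher, where 4.57% of 10662 genes were higher, and Nos2, with 11 and 9 UMIs, was lower, against 2.85%. In the Selenop Ccl8 cluster Arg1 and Slc7a2 were higher, against 2.94% of genes, and in cycling cells the same 2 genes, against 3.29%. In the hypoxic cluster Slc7a2 and Nos2 were higher, against 5.05%. In interferon cells Arg1 and Nos2 were higher, against 7.03%, and Odc1 was lower, against 6.0%, but Arg1 and Odc1 each stayed past the threshold in only 5 of 9 alternatives. In the Chil3 Ly6c2 monocyte-like cells 0 of the 6 genes were past the threshold, against 9.34% of genes in either direction.

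Most other genes of arginine handling stayed below the 1.5-fold threshold between the libraries in TAM-like cells. So did most genes of any kind, as 5.65% of 12778 genes were past it in either direction. Counts of 0 in short lists lie near that share. Of 9 further transport genes with enough UMIs, 0 were past the 1.5-fold threshold, and their median log2 ratio was -0.01, against 0.04 over all genes. Slc3a2, Slc7a8 and Slc7a7, the genes of heteromeric amino acid transporters, were at 186 and 171 CPM, 74.0 and 73.5 CPM, and 31.1 and 31.7 CPM. Slc7a1, the constitutive cationic transporter, was at 16.8 and 14.3 CPM. Of 7 genes of nitric oxide and its tetrahydrobiopterin cofactor, 0 were past the threshold, and the highest of them, Spr, Gch1 and Qdpr, had folds of 1.08, 0.993 and 1.11.

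Downstream of ornithine, 0 of 17 polyamine genes and 0 of 6 genes of ornithine and proline were past the threshold. Over all genes, 5.65% were past it in either direction. The polyamine genes with the highest levels were Oaz1, the antizyme that restrains ornithine decarboxylase, with 982 and 960 CPM, Eif5a with 501 and 531 CPM and Sat1, which acetylates spermidine and spermine, with 371 and 431 CPM. Oat, which sends ornithine toward proline, was at 31.2 and 34.8 CPM. Of 9 genes of other arginine use, Padi4 was higher at 1.56 and 2.58 CPM and Padi2 was lower at 9.29 and 6.02 CPM, against 2.64% higher and 3.01% lower over all genes. Gatm, which makes the creatine precursor from arginine, was at 520 and 738 CPM, a fold of 1.42 that stayed below the threshold. That fold exceeded the 1.33 of Ass1, which ranked 18 of the 2470 genes with at least 50 CPM.

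Lists of signals known to act on Arg1, Nos2 or Slc7a2 were read in the same cells. Of 15 genes of the response to interleukin-4, Chil3 (21.2 and 34.2 CPM) and Pparg (0.901 and 1.40 CPM, from 30 and 59 UMIs) were past the threshold on the higher side, against 2.64% of all genes, and 0 were on the lower side, though the interval of Pparg (-0.02 to 1.32 on the log2 scale) included 0. Mrc1 was at 246 and 273 CPM and Klf4 at 310 and 262 CPM. The median log2 ratio of this list was 0.09, against 0.04 over all genes. Of 17 genes of the response to interferon-gamma and Toll-like receptors, only Il6 was past the threshold, on the higher side, from 6 and 15 UMIs with an interval of -0.47 to 2.63 that included 0, and the median was 0.16. Cxcl9 was at 331 and 457 CPM and Il1b at 245 and 184 CPM. Of 15 hypoxia genes, 0 were past the threshold, against 5.65% of all genes in either direction. Their median was 0.18, with Ldha at 828 and 933 CPM and Pgk1 at 428 and 502 CPM. Of 13 genes of the response to amino acid shortage, only Slc7a11, a cystine transporter gene, was past the threshold. It was lower, at 16.7 and 10.6 CPM, against 3.01% of all genes on the lower side. Eif4ebp1 was at 211 and 225 CPM and Atf4 at 101 and 86.4 CPM.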

How the data were processed

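CD45+ cells of 1 MWA and 1 MWA plus TIGIT library were measured with 10x Genomics 3′ v3.1 chemistry. The authors deposited raw UMI counts per gene and barcode on mm10 (GRCm38). The submitters' processing notes name Cell Ranger 6.1.1, whereas the matrix header gives 4.0.0. Cell types were rebuilt, with no annotation of the authors used.

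Barcodes with fewer than 200 genes (2 and 12) or over 10% mitochondrial UMIs (179 and 276) were removed. A caller based on simulated doublets removed 806 and 786 more. Cells were integrated and clustered with Seurat 5.3.0 (resolution 0.1, and 0.5 for myeloid cells), without the 6 genes and the pathway lists. Clusters were named from markers. Of the monocyte-like clusters, 1 is not reported here. UMIs were summed per cluster and library with Python 3.11.15 and scipy 1.17.1. Ratio intervals are exact conditional binomial intervals, and their script was tested on simulated counts. Genes named outside the 6 are those past the 1.5-fold threshold in a list, the 3 highest of a list, markers, or those with the highest r over cell groups. Slc7a1, Hspa1a, Fos and Egr1 were chosen after their values were seen. The members and lists were chosen with earlier results of these data known. Gene positions were read from GENCODE vM21. edgeR 4.0.16 was used for TMM factors alone.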

Additional observations from a re-analysis of the deposited data

How the results depend on the processing

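Over 11 alternatives, the log2 ratios of Arg1, Slc7a2 and Nos2 in TAM-like cells kept their direction and stayed past the 1.5-fold threshold, and those of Ass1 and Odc1 kept their direction and stayed below it. Arg1 was 0.95 with at most 5000 UMIs per cell, 0.70 with TMM factors, 0.67 in macrophages picked by C1q UMIs without clusters, 0.70 as the mean of the CPM of single cells and 0.65 with no doublet removal. Slc7a2 was 1.62 with at most 5000 UMIs, 1.07 in macrophages picked by C1q UMIs and 0.96 with no doublet removal. With at most 5000 UMIs, where 451 and 388 TAM-like cells were left, Ass1 was 0.14, Odc1 -0.17 and Arg2 -1.77, and no hypoxic or Selenop cluster could be named. Nos2 was 1.85 without the 1% of cells highest in it, an alternative chosen after seeing the data. Only 69 and 146 TAM-like cells had a Nos2 UMI, so this left out a larger part of those cells in the MWA library. Leaving out single DC-like cells and leaving out the barcodes found in both libraries were also chosen after seeing the data. Leaving out those barcodes moved no ratio out of its interval. The cause of the ratios between the libraries was not tested. In the hypoxic cluster Arg1 was 0.66, past the threshold, at a myeloid resolution of 1.0, where that cluster held 1160 and 1180 cells. For levels and log2 ratios, the alternatives took the Folr2 Cbr2 and Selenop Ccl8 clusters together, so neither was checked alone. The joined class held 2011 and 2078 cells, but 914 and 1008 cells at a resolution of 1.0. With a minimum of 1 UMI in each library in place of 20, 1 gene each of the transport, nitric oxide, polyamine, and ornithine and proline lists was past the threshold in place of 0, and 2 genes of the interferon-gamma and Toll-like receptor list in place of 1. With TMM factors, 1 gene of the interleukin-4 list was past it in place of 2. TMM factors shifted all log2 ratios of TAM-like cells by -0.04. Shares of cells with a UMI depended on the depth they were thinned to, and the neutrophil-like and DC-like cells held too few UMIs for firm values. No paired analysis was possible because each group had 1 library.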

Other observations

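Cells that no marker list named also held Arg1. A cluster of 258 and 312 cells in the MWA and MWA plus TIGIT libraries, with medians of 1413 and 1173 UMIs per cell and 4.66% and 3.73% mitochondrial UMIs, held C1qa at 5921 and 4811 CPM. It was led by Mcpt2, Cma1, Gm26917, Lars2 and Tpsb2, with mitochondrial genes also among its leading genes. In it Arg1 was at 513 and 935 CPM and Slc7a2 at 148 and 341 CPM, so Slc7a2 was near the level of the Folr2 Cbr2 TAM-like cluster while Arg1 was not. A cluster of 27 and 24 cells led by Ctsk, Mmp9 and Acp5, genes of bone-resorbing osteoclasts, held Arg1 at 278 and 381 CPM, but Slc7a2 at only 2.21 and 4.26 CPM.

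Over the same 20 points as in the report, the genes most like Arg2 were Tnfrsf26, Rybp and Dedd2, with r from 0.97 to 0.98, and 1 of the 3 was also among the 20 most like it by Spearman's rho. Those most like Ass1 were Med11, Ly6a and Chic2, with r from 0.85 to 0.86. Those most like Odc1 were Arih2, Esyt2 and Zbtb11, with r from 0.83 to 0.84. Between Arg1 and Ass1, r was 0.22, and between Arg1 and Odc1 it was -0.32.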
